A study of Mus musculus with 4 samples.

Results

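Aminoacyl-tRNA synthetases are the enzymes that join each amino acid to its transfer RNA, and 36 of their genes were followed here in mouse forelimb buds. The 36 genes were taken from a list of symbols and kept where the deposited table gave at least 1 CPM (the usual unit of reads scaled to library size) in at least 2 of 4 libraries. All 36 met that minimum, out of 17712 genes in the table, and 13224 genes met it in all. Of the 36, 20 encode enzymes of the cytosol and 16, whose symbols end in 2, encode enzymes of the mitochondrion.

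Forelimb RNA was sequenced in 2 libraries of wild-type embryos and 2 of Shh null embryos. Both groups were littermates of the Swiss Webster stock with 33 to 35 somites, labelled E10.25 under age and E10.5 under source (days of embryonic development). The null allele is not described in the labels, nor is the number of embryos behind a library. The design text calls the libraries technical replicates, and no label names separate embryos, so the p-values rest on differences among libraries that may be technical. Sonic hedgehog, the product of Shh, is the signal that the posterior margin of the limb bud sends to the rest of the bud. Shh itself was measured at 11.4 and 7.88 CPM in wild type and at 3.15 and 2.42 CPM in Shh null, 3.45-fold lower and in the direction of the labels.

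A synthetase generally recognises 1 amino acid and its transfer RNAs, and the charged transfer RNA then delivers that amino acid to the ribosome. Most amino acids have separate nuclear genes for the cytosolic and the mitochondrial enzyme, while a single gene, Gars for glycine and Kars for lysine, serves both compartments. In the cytosol, several synthetases are bound together with scaffold proteins in the multi-synthetase complex, and others act as free enzymes. Many cytosolic synthetase genes are known targets of ATF4, a transcription factor made when cells run short of amino acids.

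The libraries held 18456502 to 29620468 reads assigned to genes. The synthetase genes were well covered, with between 229 and 15385 reads per gene and library and a median of 2250. All 7 forelimb mesenchyme markers were measured, while the hindlimb markers Tbx4 and Pitx1 summed to only 3.57 to 4.56 CPM. Several marker groups moved with genotype, and their part in the results below was not tested. All 5 sex-linked genes differed, with 4 genes of the Y chromosome called lower and Xist called higher in Shh null. Their log2 fold changes ran from −1.48 to 1.42, with a median of −1.45. Their summed level, which adds changes in opposite directions, was 426 to 538 CPM in wild type and 583 to 620 CPM in Shh null. Macrophage markers summed to 17.0 to 19.4 CPM in wild type and 31.6 to 32.2 CPM in Shh null, with 1 of 6 tested called higher. The forelimb mesenchyme markers summed to 986 to 1045 and 1391 to 1453 CPM, with 4 of 7 called higher and 1 lower. Surface ectoderm markers (309 to 317 and 351 to 365 CPM) and myogenic markers (92.4 to 99.0 and 109 to 111 CPM) had no called gene. Erythroid markers ranged from 2946 to 11005 CPM in wild type, the higher value in wild type 1, and from 3736 to 6343 CPM in Shh null. Endothelial (191 to 248 and 222 to 225 CPM) and neural markers (13.6 to 14.8 and 13.2 to 15.5 CPM) overlapped between genotypes. No marker present in the table was at 0 in every library.

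One synthetase gene rose in Shh null, and it was mitochondrial. Lars2, which encodes the mitochondrial leucyl-tRNA synthetase (ENSMUSG00000035202.8, mm10 chromosome 9, 123366927 to 123462666, plus strand), had 127 and 102 CPM in wild type and 226 and 263 CPM in Shh null. Both Shh null libraries lay far above both wild-type libraries. The group means of 115 ± 17.7 and 244 ± 26.3 CPM (SD, n = 2) differed 2.13-fold. On the scale of log2(CPM + 1), used for all log2 fold changes here, the difference came to 1.09 ± 0.13 (SE; limma, Benjamini-Hochberg adjusted p = 0.00215, 95% interval 0.81 to 1.37). Calls are made at an adjusted p under 0.05 over all 13224 tested genes, of which 2.48% were called, 1.24% higher and 1.24% lower. Lars2 was thus 1 of 164 genes called higher, the 29th of them by log2 fold change and the 15th by mean CPM. In a bulk library, more transcript per cell and more cells that carry the transcript cannot be told apart.

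The Lars2 difference rested on many reads, from 1854 in wild type 2 to 5750 in Shh null 2. Its call held in all 12 alternative fits, with log2 fold changes from 0.93 (without wild type 2) to 1.25 (without wild type 1). In those fits the adjusted p ranged from 6.39e-12 (DESeq2) to 0.0453 (limma without Shh null 2). In the authors' deposited table Lars2 had a log2 fold change of 1.09 and a false discovery rate of 1.99e-10. Exons of Lars2 overlapped no other annotated gene, and 0.196% of the distinct 50-base stretches of its annotated transcripts also occurred in transcripts of another gene.

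The genes beside Lars2 on chromosome 9, and the RNAs Rn45s, Rmrp, Rpph1 and Malat1, were examined after the value of Lars2 was seen. Among the 4 listed genes on each side, 5 were tested and 0 were called by limma. Limd1, the next gene downstream, was measured at 168 and 169 CPM in wild type and at 163 and 143 CPM in Shh null (log2 fold change −0.15, limma adjusted p = 0.474). Sacm1l, one gene further, was at 70.8 and 72.6 CPM against 63.8 and 80.0 CPM, with overlapping groups. Reads of Rn45s, the precursor of ribosomal RNA, were at 9314 and 6663 CPM in wild type and 7668 and 5457 CPM in Shh null. These groups overlapped, with a log2 fold change of −0.28. Rmrp and Rpph1, the RNAs of 2 ribonucleases, also overlapped (−0.26 and −0.31). Malat1, a nuclear noncoding RNA, was at 1171 and 1262 CPM in wild type and at 1782 and 1490 CPM in Shh null (0.42, limma adjusted p = 0.125). It was higher without overlap, as were 25.1% of all tested genes.

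**Figure D1:**
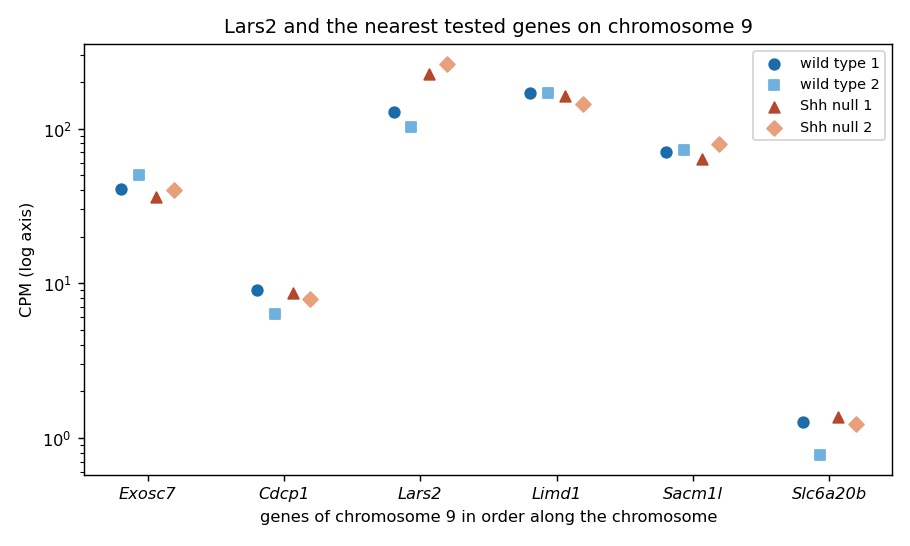
CPM (log axis) of Lars2 and of the nearest tested genes on chromosome 9, in chromosomal order. Each point is 1 library. The 2 Shh null libraries of Lars2 sit at 226 and 263 CPM, above the wild-type values of 127 and 102 CPM, while none of the 5 neighbours was called.

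The cytosolic synthetases were nearly all measured at lower levels in Shh null, by small amounts of which none passed the test. The log2 fold change was below 0 for 19 of 20 genes, against 50.1% of all tested genes, and its median was −0.29 against −0.0005 for all tested genes. The values ran from −0.43 (Dars) to 0.04 (Qars). By limma 0 of 20 were called lower and 0 higher, the smallest adjusted p being 0.0732. At an unadjusted p under 0.05, 13 of 20 were lower and 0 higher, against 9.02% and 9.5% of all tested genes. The tool edgeR called 0 of the 20, against 1.21% of all tested genes lower and 1.28% higher. DESeq2 called 3 lower (Dars, Aars and Nars) and 0 higher, against 2.23% and 1.85%. The authors' deposited table held 0 with a false discovery rate under 0.05, against 1.68% of its genes lower and 2.33% higher. In 16 of 20 genes both Shh null libraries were below both wild-type libraries, against 25% of all tested genes. The genes share the same 4 libraries, so these counts are not independent observations.

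In sum, the 20 cytosolic genes gave 3672 and 3806 CPM in wild type and 3106 and 3204 CPM in Shh null. Both Shh null sums lay below both wild-type sums. Wild type 2 gave the highest value of the 4 libraries for 15 of the 20 genes. Shh null 1 gave the lowest for 11 and Shh null 2 for 8. Without Shh null 1, 6 genes were lower at an unadjusted p under 0.05, and without wild type 2, 7 were. With quantile normalization the count was also 6 and the median log2 fold change −0.19.

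**Figure D2:**
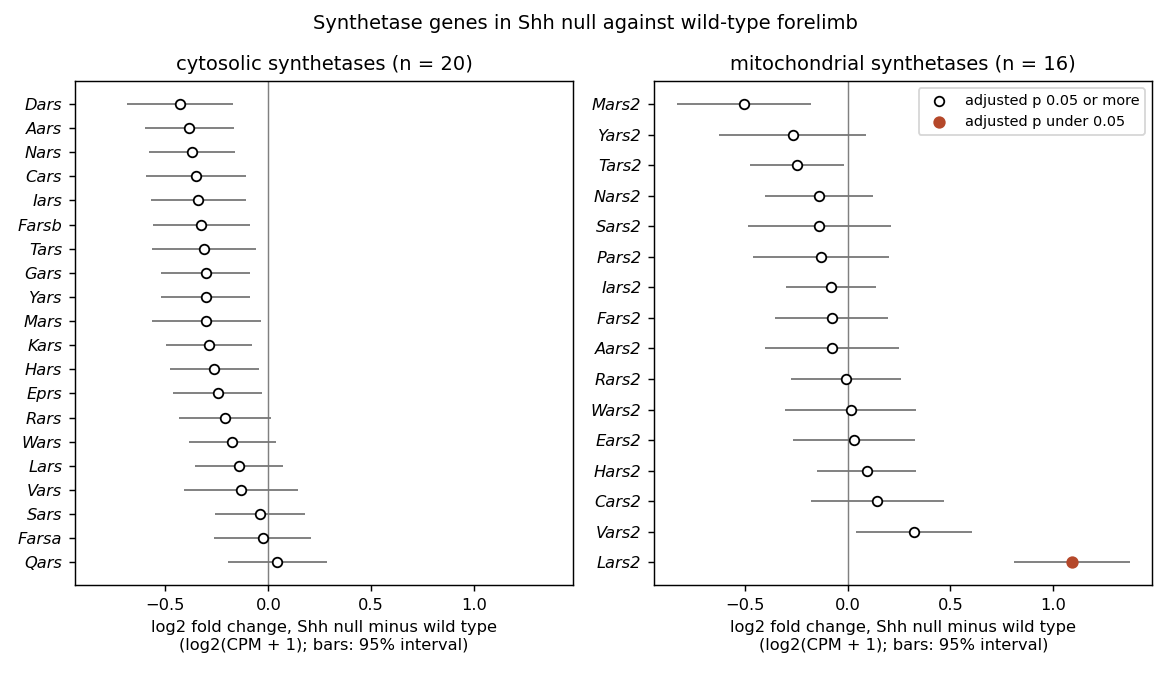
Log2 fold change of each synthetase gene, Shh null minus wild type, on the log2(CPM + 1) scale. Points are limma estimates from 2 libraries per genotype, bars are 95% intervals, and the filled point is the only gene called, Lars2 at 1.09. For 19 of 20 cytosolic genes the estimate lies below 0.

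Among the genes with the largest cytosolic differences, Dars encodes the aspartyl enzyme (ENSMUSG00000026356.15, chromosome 1, 128363707 to 128417368, minus strand). It was measured at 201 and 183 CPM in wild type and at 129 and 156 CPM in Shh null. The groups did not overlap, and the means differed 1.34-fold (log2 fold change −0.43 ± 0.12 SE, limma adjusted p = 0.0884). Without wild type 2 Dars was called lower (limma adjusted p = 0.0242).

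Aars, for alanine (ENSMUSG00000031960.14, chromosome 8, 111033144 to 111057664, plus strand), was at 205 and 223 CPM against 167 and 160 CPM. This was a 1.31-fold difference without overlap (log2 fold change −0.38 ± 0.10 SE, limma adjusted p = 0.0732). The gene Exosc6 overlaps 14.3% of the Aars exon bases on the same strand, so the division of reads between them depends on the counting.

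Nars, for asparagine (chromosome 18, 64499647 to 64516652, minus strand), was at 172 and 179 CPM against 133 and 138 CPM. The libraries of a group lay close together, and the means differed 1.30-fold (log2 fold change −0.37 ± 0.09 SE, limma adjusted p = 0.0732). Cars, for cysteine (chromosome 7, 143557230 to 143600090, minus strand), was at 64.0 and 72.8 CPM against 54.5 and 52.1 CPM, a 1.28-fold difference without overlap (log2 fold change −0.35 ± 0.11 SE, limma adjusted p = 0.131).

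Of the 8 synthetase genes of the multi-synthetase complex (Eprs, Iars, Lars, Mars, Qars, Rars, Kars and Dars) 7 had a log2 fold change below 0, with a median of −0.27. Of all tested genes 50.1% were below 0. By limma and edgeR 0 of the 8 were called, while DESeq2 called Dars lower, against 2.23% of all tested genes. Eprs, whose product charges both glutamic acid and proline, had the highest CPM of any synthetase gene, at 540 and 535 CPM in wild type and 442 and 464 CPM in Shh null. The Eprs libraries of each genotype lay close together and the genotypes did not overlap (log2 fold change −0.25 ± 0.10 SE, limma adjusted p = 0.216). After Dars, the next largest difference in the complex was that of Iars, for isoleucine, at 216 and 231 CPM against 165 and 188 CPM (log2 fold change −0.34). The cytosolic counterpart of Lars2 is Lars, for leucine, which was at 238 and 239 CPM against 208 and 224 CPM (log2 fold change −0.14, limma adjusted p = 0.455). Qars, for glutamine, was the only cytosolic gene with an estimate above 0 (0.04), at 186 and 221 CPM against 209 and 208 CPM, and its groups overlapped. Without wild type 1 the Qars estimate was −0.08.

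Outside the multi-synthetase complex stood 4 genes of class I enzymes (Cars, Vars, Wars and Yars) and 8 genes of class II enzymes. The classes differ in the fold of the catalytic domain. All 12 genes had estimates below 0, with medians of −0.24 and −0.31. By limma and edgeR 0 of the 12 were called, and DESeq2 called Aars and Nars lower, against 2.23% of all tested genes. Farsa and Farsb, which encode the 2 subunits of the phenylalanyl enzyme, were not alike in value. Farsb was at 145 and 150 CPM against 109 and 127 CPM (log2 fold change −0.33, 95% interval −0.56 to −0.09), and Farsa at 71.2 and 78.8 CPM against 76.6 and 70.5 CPM (−0.03, 95% interval −0.26 to 0.21). The difference between the subunits was not tested, and exons of Sgpp2 cover 9.47% of the Farsb exon bases on the opposite strand. Sars, for serine, also overlapped between groups, at 170 and 167 CPM against 172 and 156 CPM. The estimates of Farsa and Sars turned positive with quantile normalization (0.03 and 0.05), as did those of Farsa without wild type 2 or Shh null 2 and of Sars without Shh null 2. The Vars estimate of −0.13 turned to 0.02 without Shh null 2.

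**Figure D3:**
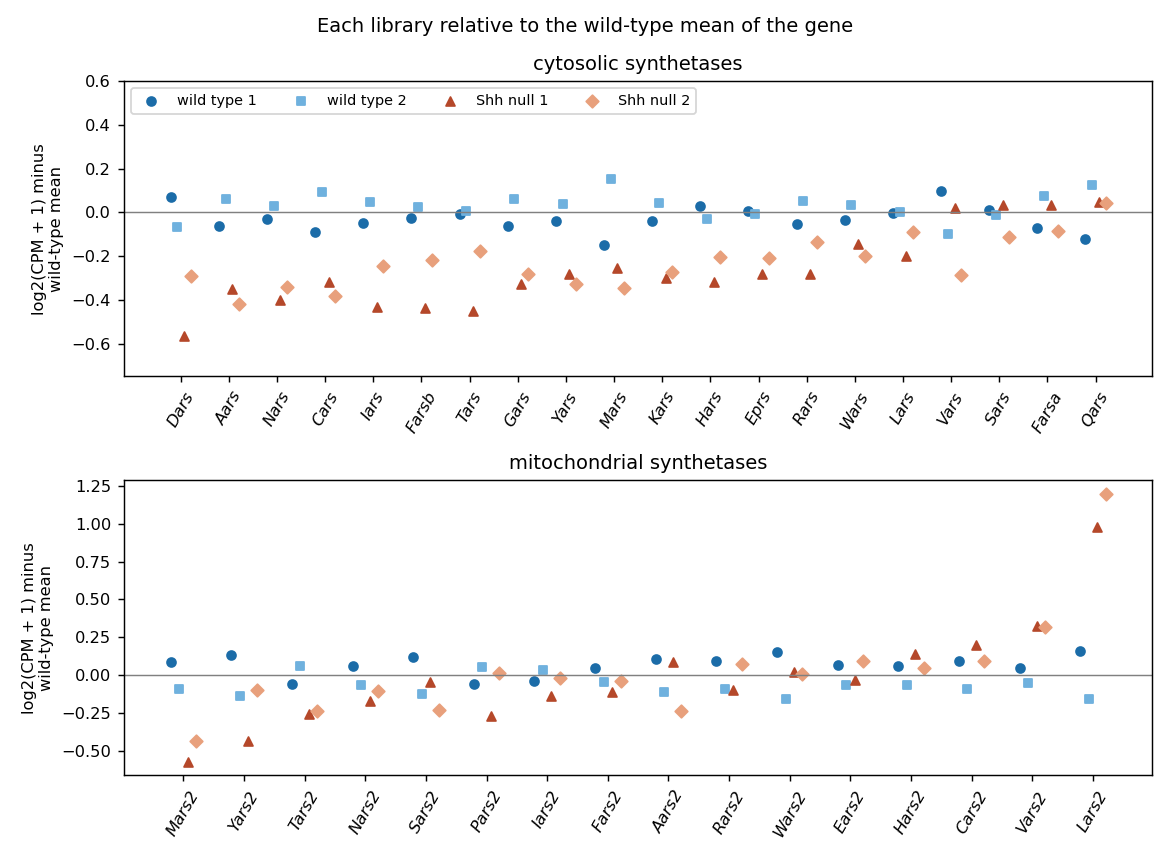
Log2(CPM + 1) of each library minus the wild-type mean of the gene, for cytosolic genes above and mitochondrial genes below. Each point is 1 library. In 16 of the 20 cytosolic genes both Shh null points lie below both wild-type points, and Lars2 stands apart among the mitochondrial genes.

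The 12 cytosolic genes listed as known ATF4 targets (Aars, Cars, Eprs, Gars, Iars, Lars, Mars, Nars, Sars, Tars, Wars and Yars) all had estimates below 0, against 50.1% of all tested genes, with a median of −0.31. An unadjusted p under 0.05 was reached by 9 of them, all lower, against 9.02% of all tested genes. Of the other 8 cytosolic genes 7 had estimates below 0, with a median of −0.24, and 4 had an unadjusted p under 0.05. By limma 0 were called in either set, against 1.24% of all tested genes in each direction. DESeq2 called 2 of the first (Aars and Nars) and 1 of the second (Dars) lower, against 2.23% of all tested genes. The difference between the sets was not tested.

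Promoters were searched for the core of the element bound by ATF4 with C/EBP proteins, TGATGNAA, on both strands. Promoter sequences of 250 bases before to 50 after the annotated start were taken from RefSeq (GRCm38.p6, the assembly of mm10), where 26 of the 36 synthetase genes had an entry. Distances below are from that start, which for Aars lies downstream of the gene start given above (111033144). The element occurred in 5 of the 7 listed ATF4 targets with an entry, in 0 of 5 other cytosolic genes and in 0 of 14 mitochondrial genes. It was present in 2.67% of the 9690 tested genes with an entry. A site of each is shown because the element marks those 5 genes, with Asns, a well-studied ATF4 target, for comparison. Each line is 30 bases on the strand that reads the element, which stands in capitals.
Aars (chr8:111033840-111033869, minus strand, 9 bases after the start): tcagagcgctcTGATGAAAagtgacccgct
Gars (chr6:55037960-55037989, minus strand, 30 bases before the start): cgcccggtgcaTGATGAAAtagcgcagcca
Iars (chr13:49682126-49682155, minus strand, 7 bases after the start): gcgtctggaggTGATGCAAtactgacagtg
Tars (chr15:11399655-11399684, plus strand, 15 bases before the start): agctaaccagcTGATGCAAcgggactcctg
Yars (chr4:129189895-129189924, plus strand, 3 bases after the start): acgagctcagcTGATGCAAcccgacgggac
Asns (chr6:7693214-7693243, minus strand, 23 bases before the start): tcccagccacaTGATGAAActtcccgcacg
A match is a description of the letters and does not show binding.

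The log2 fold changes of the 5 genes with the element ran from −0.38 (Aars) to −0.30 (Yars). All 20 cytosolic genes ran from −0.43 to 0.04. Gars, for glycine (chromosome 6), was at 250 and 273 CPM in wild type and at 208 and 215 CPM in Shh null (log2 fold change −0.31 ± 0.10 SE, limma adjusted p = 0.136). Tars, for threonine, was at 127 and 128 CPM against 93.2 and 113 CPM (−0.31), and Yars, for tyrosine, at 110 and 116 CPM against 92.8 and 89.8 CPM (−0.30). With Aars and Iars, all 5 were lower without overlap of the groups. So were 16 of the 20 cytosolic genes and 25% of all tested genes. By limma and edgeR 0 of the 5 were called, while DESeq2 called Aars lower (adjusted p = 0.0245), against 2.23% of all tested genes.

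The E-box CACGTG, a sequence bound by MYC and related factors, overlapped none of these sites. It was found in 4 of 12 cytosolic synthetase genes (Aars, Farsb, Iars and Tars), in 1 of 14 mitochondrial genes (Ears2) and in 11.8% of tested genes with an entry. Those of Farsb and Iars, the 2 outside annotated exons, are given on the strand of the gene, in capitals.
Farsb (chr1:78488919-78488948, minus strand, 39 bases before the start): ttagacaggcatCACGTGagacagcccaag
Iars (chr13:49682049-49682078, plus strand, 69 bases before the start): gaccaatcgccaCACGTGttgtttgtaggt

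Without Lars2, the mitochondrial synthetases had estimates on both sides of 0. Of the 16 mitochondrial genes 10 were below 0 and 6 above, with a median of −0.08. That median turned to 0.00999 without wild type 1. By limma 1 was called higher (Lars2) and 0 lower, against 1.24% of all tested genes in each direction. At an unadjusted p under 0.05, 2 were lower (Mars2 and Tars2) and 2 higher (Lars2 and Vars2), shares near the 9.02% and 9.5% of all tested genes. DESeq2 and edgeR also called only Lars2, against 1.85% and 1.28% of all tested genes called higher. In sum the 16 genes gave 659.7 and 609.5 CPM in wild type and 712 and 765 CPM in Shh null, Lars2 supplying 18.1% of the sum in wild type and 33.1% in Shh null. Without it the sums were 533 and 507 CPM against 486 and 502 CPM, with both Shh null sums below both wild-type sums.

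Mars2, the mitochondrial methionyl enzyme (ENSMUSG00000046994.9, chromosome 1, 55237177 to 55248470, plus strand), had the largest difference below 0 of all 36 genes. It was measured at 17.7 and 15.5 CPM in wild type and at 10.8 and 12 CPM in Shh null. The groups did not overlap and the means differed 1.46-fold, but Mars2 was not called (log2 fold change −0.50 ± 0.15 SE, limma adjusted p = 0.110). It was covered by 261 to 505 reads per library.

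Vars2, for valine, was at 18.9 and 17.6 CPM in wild type and at 23.1 and 23.0 CPM in Shh null. Both Shh null values were higher, with a 1.26-fold difference that was not called (log2 fold change 0.32 ± 0.13 SE, limma adjusted p = 0.213). An antisense gene, Gm20483, covers 8.52% of the Vars2 exon bases. Yars2, for tyrosine, was at 24.2 and 19.9 CPM against 16.0 and 20.4 CPM, and its groups overlapped (log2 fold change −0.27 ± 0.16 SE, limma adjusted p = 0.404).

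Tars2, for threonine, was at 69.5 and 75.3 CPM against 60.3 and 61.3 CPM without overlap (log2 fold change −0.25, limma adjusted p = 0.236). The other mitochondrial genes had estimates from −0.14 (Nars2) to 0.14 (Cars2), all with 95% intervals that included 0. Their intervals allowed differences as low as −0.48 (Sars2) and as high as 0.47 (Cars2). Iars2, the most abundant of them in CPM, was at 118 and 124 CPM against 110 and 119 CPM, with overlapping groups. Exons of Rab3gap2 on the opposite strand cover 22.9% of its exon bases.

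Pairs were formed by symbol, the same with and without the final 2, and 13 amino acids had such a pair among the 36. The rule left out phenylalanine, with log2 fold changes of −0.03 (Farsa), −0.33 (Farsb) and −0.08 (Fars2). It also left out Eprs (−0.25), whose partners are Ears2 (0.03) for glutamic acid and Pars2 (−0.13) for proline. In 11 of the 13 pairs the cytosolic estimate was below the mitochondrial one, the exceptions being methionine and serine. The median log2 fold change was −0.30 for the cytosolic and −0.07 for the mitochondrial genes of these pairs. Leaving out 1 library gave between 9 of 13 (without wild type 2) and 13 of 13 pairs (without wild type 1). The widest gap was that of leucine, with −0.14 for Lars and 1.09 for Lars2, followed by cysteine with −0.35 for Cars and 0.14 for Cars2. The histidine genes Hars and Hars2 lie head to head on chromosome 18 and share 195 exon bases on opposite strands. Their estimates were −0.26 for Hars, at 166 and 159 CPM against 130 and 141 CPM, and 0.09 for Hars2, at 52.1 and 47.7 CPM against 55.0 and 51.6 CPM. No test of the difference within a pair was run.

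**Figure D4:**
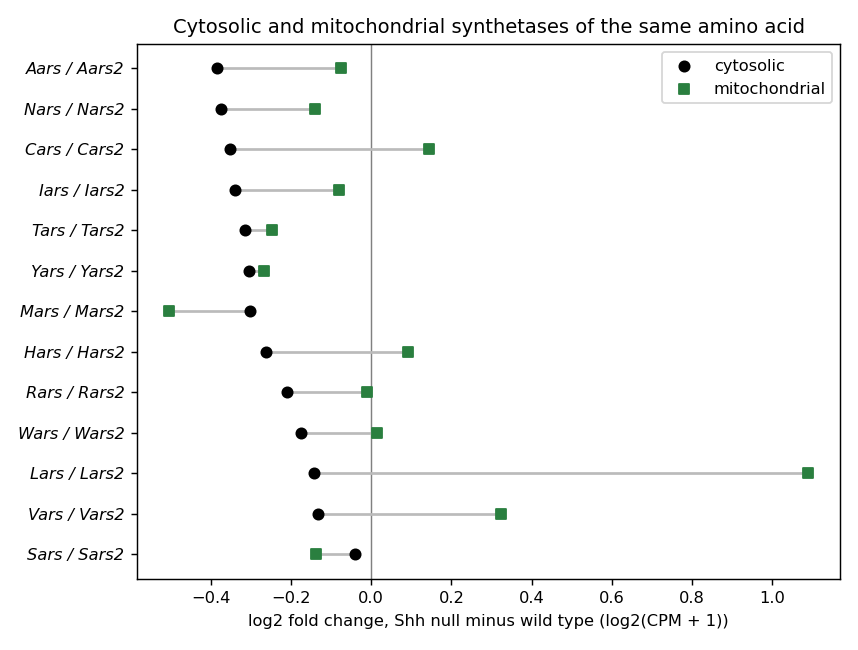
Log2 fold change (Shh null minus wild type) of the cytosolic and the mitochondrial gene in each of 13 pairs matched by symbol, joined by a line. In 11 pairs the cytosolic point lies to the left, and the leucine pair, with −0.14 and 1.09, is the widest.

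Levels were compared between genes per kilobase of exon (CPM per kb over the union of annotated exons). In wild type the cytosolic genes had a median of 36.5 CPM per kb and the mitochondrial genes 5.32 CPM per kb. In all 13 pairs the cytosolic gene was the higher, by 2.07-fold (threonine) to 19.9-fold (methionine). With the length of the longest transcript in place of the union all 13 were again higher, by 1.56-fold to 22.3-fold. Mars2 has the same length, 11.294 kb, by both measures, so this change of length did not vary its level per kb. In wild-type CPM, without division by length, Mars averaged 101 and Mars2 16.6. The order of single genes depends on the length used, as for Eprs, at rank 13 with the union and rank 3 with the longest transcript.

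Per kb of exon union, the highest levels belonged to Gars, at 80.2 and 87.5 CPM per kb in the wild-type libraries, Hars (67.7 and 65.0) and Kars (61.7 and 65.3). Gars stood above Hars in both libraries, while the ranges of Hars and Kars overlapped. With the longest transcript Kars was at rank 1 (117 CPM per kb), Gars at rank 2 (110) and Hars at rank 6 (81.6). Gars and Kars are the 2 genes that serve both compartments. Hars averaged 162 ± 4.82 CPM in wild type and 135 ± 7.50 CPM in Shh null (SD, n = 2), without overlap. Its log2 fold change was −0.26 ± 0.10 (SE), with a limma adjusted p of 0.187. Kars, at 276 and 292 CPM against 230 and 234 CPM, was measured without overlap (log2 fold change −0.29 ± 0.09 SE, limma adjusted p = 0.147).

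Per kb of exon union, the lowest levels were those of Mars2 (1.57 and 1.38 CPM per kb), Cars2 (2.01 and 1.75) and Vars2 (3.46 and 3.22), in that order without overlap. With the longest transcript Mars2 was again the lowest (1.47 CPM per kb), but Ears2 (4.07) and Vars2 (4.12) came before Cars2 (4.34). Cars2, for cysteine, was at 14.6 and 12.7 CPM in wild type and 15.7 and 14.5 CPM in Shh null, with overlapping groups (log2 fold change 0.14 ± 0.14 SE, limma adjusted p = 0.633). Cars, at 9.72 and 11.1 CPM per kb, was the only cytosolic gene whose mean per kb of exon union lay among those of the mitochondrial genes. With the longest transcript Farsa (22.4 CPM per kb) also lay among them, below Rars2 (23.8 CPM per kb). In the order of all 36 genes, 19 of 35 neighbouring pairs had overlapping wild-type ranges. Lars2 stood at 10.34 CPM per kb in wild type and at 22.04 CPM per kb in Shh null. Per kb of exon union, the level of Lars was 4.29 times that of Lars2 in wild type and 1.82 times in Shh null. These ratios depend on the length used. With the longest transcript the wild-type levels were 59.9 CPM per kb for Lars and 29.4 for Lars2. In Shh null, Lars2 averaged 244 CPM over a longest transcript of 3.894 kb, and Lars 216 CPM over 3.98 kb. By that length Lars2 was the higher of the pair in Shh null.

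**Figure D5:**
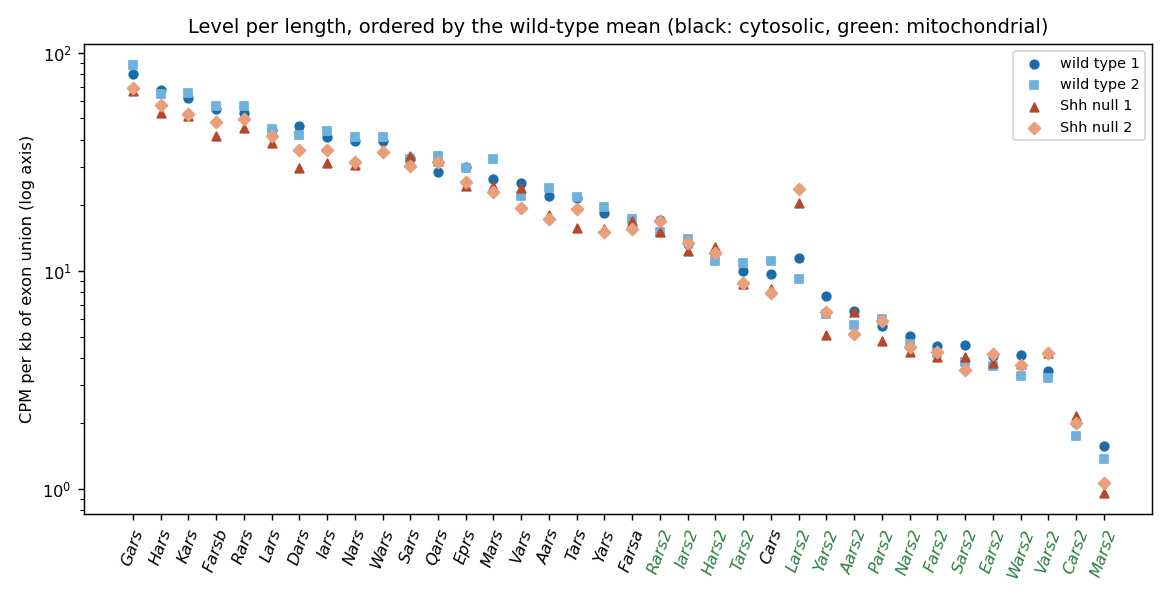
CPM per kb of exon union (log axis) of the 36 genes in the 4 libraries, ordered by the wild-type mean, with cytosolic names in black and mitochondrial names in green. The order runs from Gars (83.9 CPM per kb in wild type) to Mars2 (1.47), and Lars2 is the only gene whose Shh null points stand well above its wild-type points.

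The other genes of transfer RNA charging were read from lists of their own. Of 11 tested synthetase cofactors and editing genes, 0 were called by limma or edgeR. DESeq2 called 1 lower (Aimp2), against 2.23% of all tested genes. An unadjusted p under 0.05 with a lower level was found for 2, against 9.02% of all tested genes. The median log2 fold change was −0.07. Aimp2, a scaffold of the multi-synthetase complex, was at 33.0 and 34.8 CPM in wild type and at 21.98 and 24.9 CPM in Shh null (log2 fold change −0.51, limma adjusted p = 0.0652). Eef1e1, a small protein of the same complex, was at 56.0 and 52.4 CPM against 34.7 and 43.5 CPM (−0.47, limma adjusted p = 0.0932). Neither pair of groups overlapped.

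Of 13 tested genes of mitochondrial charging and translation, 0 were called by limma, edgeR or DESeq2. Only 1 (Gfm1) had an estimate below 0 with an unadjusted p under 0.05, against 9.02% of all tested genes. Gfm1, a mitochondrial elongation factor, was at 69.2 and 70.9 CPM against 53.9 and 60.8 CPM (log2 fold change −0.29, limma adjusted p = 0.191). Tufm, which delivers charged transfer RNA to the mitochondrial ribosome, was at 89.3 and 99.7 CPM against 76.5 and 86.6 CPM (−0.21, limma adjusted p = 0.335).

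Of 25 tested genes of transfer RNA maturation and export 21 had estimates below 0, against 50.1% of all tested genes, with a median of −0.21. By limma, edgeR and DESeq2 0 were called. At an unadjusted p under 0.05, 9 were lower and 0 higher, against 9.02% and 9.5% of all tested genes. Trmt61a, a transfer RNA methyltransferase, was at 15.5 and 15.0 CPM against 11.6 and 11.02 CPM (log2 fold change −0.40, limma adjusted p = 0.162). Rpp40, a subunit of ribonuclease P, was at 22.9 and 20.5 CPM against 15.1 and 17.4 CPM (−0.40, limma adjusted p = 0.169).

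Of 6 cytosolic elongation factor genes 0 were called by the 3 tools, and the median was −0.04. Of the 6, 2 were lower at an unadjusted p under 0.05, against 9.02% of all tested genes. Eif5a, which helps the ribosome past difficult peptide bonds, was at 422 and 422 CPM against 299 and 356 CPM (log2 fold change −0.37, limma adjusted p = 0.116). Eef1d, part of the exchange factor for elongation factor 1, was at 363 and 377 CPM against 320 and 297 CPM (−0.26, limma adjusted p = 0.191).

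In the list of ATF4 and amino acid stress genes, 2 of 23 tested genes were called lower by limma, 0 higher and 21 were not called, against 1.24% of all tested genes in each direction. The median was −0.13. By edgeR 2 were called lower and 0 higher, against 1.21% and 1.28% of all tested genes. DESeq2 called 4 lower and 1 higher, against 2.23% and 1.85%. Groups did not overlap in 11 genes that were lower and 5 that were higher in Shh null, against 25% and 25.1% of all tested genes. Mthfd2, a mitochondrial enzyme of one-carbon metabolism, fell from 56.7 and 55.1 CPM to 35.5 and 33.99 CPM (log2 fold change −0.67 ± 0.11 SE, limma adjusted p = 0.0126). Slc1a5, a transporter of neutral amino acids, fell from 37.3 and 41.2 CPM to 24.4 and 25.3 CPM (−0.64 ± 0.12 SE, limma adjusted p = 0.0230). Both calls ended without Shh null 1 (adjusted p = 0.112 and 0.221) and without Shh null 2 (0.0858 and 0.103), and that of Slc1a5 also without the filter on low values (0.0504). Ddit4, Sesn2, Atf4 and Asns are named after their values were seen. The largest difference in the list was in the other direction and was not called by limma. Ddit4, an inhibitor of mTORC1 signalling, was at 16.1 and 21.8 CPM in wild type and at 33.6 and 28.9 CPM in Shh null, without overlap (log2 fold change 0.71, limma adjusted p = 0.0522). Sesn2, a stress-induced sensor of leucine, was at 8.53 and 8.15 CPM against 13.3 and 9.79 CPM (log2 fold change 0.41, limma adjusted p = 0.245). Atf5, Trib3 and Cebpb were the other genes with both Shh null libraries above both wild-type libraries. Atf4 was at 269 and 228 CPM against 196 and 194 CPM (log2 fold change −0.35, limma adjusted p = 0.127). Asns, which makes asparagine, was at 144 and 124 CPM against 89.7 and 102 CPM (−0.48, limma adjusted p = 0.0594).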

How the data were processed

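Values for forelimb RNA of 2 wild-type and 2 Shh null libraries were used. The submitters' processing notes name TopHat2 (2.0.9), SAMtools, HTSeq (0.5.4p5), edgeR (3.4.2) and build mm10. The sources used here do not give their roles, an annotation or whether counting used strand. The authors deposited 1 signal value per gene and library. All values (100%, tolerance 0.001 reads) were whole multiples of the smallest positive value of their column. TMM factors from the recovered reads gave the deposited scale, so the signal is CPM over TMM-scaled library sizes. The authors' comparison table gave log2 fold changes, p-values and false discovery rates as deposited, quoted only by name.

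Genes with at least 1 CPM in at least 2 libraries were fitted on log2(CPM + 1) with limma 3.58.1 (lmFit, eBayes with trend, R 4.3.3), genotype as the only term and Benjamini-Hochberg adjustment over 13224 genes. Alternatives included edgeR 4.0.16 (quasi-likelihood) and DESeq2 1.42.0 on recovered reads, 2 other scalings, a pseudocount of 0.25, no filter, a replicate block and leaving out each library. Exons, lengths and coordinates came from GENCODE M21 (mm10), where all 36 symbols matched. The fits were tested on simulated data. The members, lists and tests were chosen with earlier results of these data known. By the rule for naming, every member could be named. Full values were given for called genes, the 4 largest differences in each compartment and the 3 highest and lowest levels per kb. For each other list the named genes were up to 4 called ones, or the 2 largest differences. The checks of neighbours of Lars2, of Rn45s, Rmrp, Rpph1 and Malat1, and of shared 50-base stretches were chosen after the values were seen. So were the counts of cytosolic genes below 0 or at an unadjusted p under 0.05. Certain items are not reported here.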

Additional observations from a re-analysis of the deposited data

How the results depend on the processing

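Over 12 alternative settings the 36 log2 fold changes gave 432 comparisons with the reported values, of which 397 kept direction and side of the threshold, 16 passed the threshold newly and 19 changed sign, in 9 genes that were not called. With quantile normalization the sign changes were Ears2 (−0.0039), Farsa (0.025), Rars2 (0.0091), Sars (0.048) and Wars2 (−0.0039), and with DESeq2 Wars2 (−0.0090). Leaving out 1 library changed the sign of Aars2 (−0.23 to 0.085 over the 4 fits), Ears2 (−0.037 to 0.099), Farsa (−0.10 to 0.045), Pars2 (−0.27 to 0.017), Qars (−0.080 to 0.17), Rars2 (−0.10 to 0.082), Sars (−0.11 to 0.032), Vars (−0.29 to 0.020) and Wars2 (−0.14 to 0.17). The cause was not tested. The Lars2 call held in every setting run, and without 1 library its log2 fold change was 0.93 to 1.25. Leaving out 1 library, where the lone library is assumed to vary like the other group, gave 15 to 386 genes called higher and 41 to 416 lower over all genes, 0 to 1 synthetase called lower, 6 to 13 cytosolic genes lower at an unadjusted p under 0.05, 16 to 20 cytosolic estimates below 0, and medians of −0.32 to −0.23 (cytosolic) and −0.11 to 0.00999 (mitochondrial). Without the filter 79 genes were called higher and 91 lower, where more genes are tested, and DESeq2 called 295 lower, with 3 synthetases lower. Quantile normalization gave a cytosolic median of −0.19 and 6 cytosolic genes lower at an unadjusted p under 0.05. The longest transcript gave medians of 55.1 (cytosolic) and 7.65 CPM per kb (mitochondrial), since it is shorter than the exon union.

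The replicate numbers pair no samples by label, and deviations of same-numbered libraries correlated at −0.203 over tested genes. With the replicate block 220 genes were called higher and 176 lower, with 1 synthetase higher (Lars2, log2 fold change 1.09) and 0 lower, and no synthetase call changed. With the numbers crossed, added after the data were seen, 641 genes were called higher and 745 lower, with 12 synthetases lower.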
